A study of Mus musculus with 4 samples.

Results

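RNA contacts of SRSF4 on the nuclear chromosomes that came in small groups, 2 to 9 separate clusters of crosslink sites on 1 strand, are described here. Sites at most 50 nt apart were joined into clusters, and clusters less than 20000 nt apart were joined into regions. Regions of 2 to 9 clusters were kept when no run of sites (a series in which successive sites are under 500 nt apart) had 50 or more sites. They were chosen by the positions of the sites alone, without their depth, so the number, order and spacing of clusters describe the choice and support nothing. The mitochondrial chromosome was not considered, and 2 loci on the plus strands of chromosomes 17 and 1 were left out by position. Nuclear here means on any chromosome other than the mitochondrial one, and where in the cell the RNA lay was not measured. The rule found 643 regions of 5450 in all, or 11.8% of the 5448 nuclear regions. They held 1646 clusters, 7136 sites (21.7% of nuclear sites) and 13879 cDNAs (15.7% of nuclear cDNAs, 95% exact binomial interval 15.5% to 16.0%).

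The cells were cardiomyocytes isolated from C57BL/6 mice at postnatal day 0 or 1, plated and transfected the next day with 15 μg of modified RNA for an SRSF4-GFP fusion, using Lipofectamine 2000. After 48 h the cultures received 100 mJ of ultraviolet light at 254 nm, RNA was trimmed with RNase I to 80 to 200 nt, and complexes were recovered with a goat anti-GFP antibody. The labels list 4 libraries in 1 group, with no GFP-only, input or untransfected group, and do not say whether they came from separate cultures. The values are 1 pooled list of significant sites, summed over 5 data sets per the file header, and no source used here says how these relate to the 4 libraries. The protein is an introduced fusion in cultured cells, so contacts of the endogenous protein were not measured. Cell type markers could not be read, because the list is on the mm9 build and no mm9 annotation was used here. Regions are therefore named by mm9 position (1-based), without gene names or sequences, and the sign after a position gives the strand.

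SRSF4 belongs to the SR proteins, a family that binds RNA through RNA recognition motifs and carries a tail rich in serine and arginine. SR proteins are known for binding exonic splicing enhancers, where they help the spliceosome to define exons, and they also take part in RNA export and translation. In iCLIP, ultraviolet light links protein to RNA, and reverse transcription tends to stop at the linked nucleotide, so the start of a cDNA marks the contact. Several contacts along a transcript can therefore appear as clusters that are separated by stretches of RNA without listed sites. The list gives no RNA levels, so a deep region may reflect more contacts per RNA or more RNA, and these cannot be told apart. With 1 pooled value per site there is no spread between replicates and no test was possible. Intervals cover counting error only and treat cDNAs, sites or regions as independent.

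Most of these regions were small and shallow. A total of 448 (69.7%) had 2 clusters, 116 had 3, 42 had 4, 13 had 5, 10 had 6, 7 had 7, 3 had 8 and 4 had 9. The median region held 8 sites (2 to 83) and 9 cDNAs (2 to 665), with quartiles of 6 and 18 cDNAs. Its length was 5812 nt at the median and ran from 74 to 46006 nt. Clusters themselves were narrow, with a median width of 7 nt and a maximum of 218 nt, and they covered a median of 0.325% of a region's length. In 155 regions (24.1%) every site had 1 cDNA, with up to 16 sites in such a region, whereas 46 (7.15%) contained a site of 10 or more cDNAs.

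Depth did not grow evenly with the number of clusters. The median was 7 cDNAs in regions of 2 clusters, 12 in regions of 3 and 21.5 in regions of 4. It was 19 at 5 clusters, 27.5 at 6, 40 at 7, 35 at 8 and 27 at 9. The highest region had 256, 263 and 665 cDNAs at 2, 3 and 4 clusters, but 85 at 5 clusters, 166 at 6, 129 at 7, 51 at 8 and 39 at 9. Pooled over sites, the mean was 1.92, 2.10 and 2.38 cDNAs per site at 2, 3 and 4 clusters and between 1.13 and 1.58 at 5 to 9 clusters. The typical region showed no such division, since the median of the regions' own means was 1.20 to 1.25 at 2 to 4 clusters and 1.14 to 1.28 at 5 to 9. The regions of 5 or more clusters were few, 37 of the 643, and the deepest of them held 166 cDNAs. The 10 deepest regions all had 2 to 4 clusters, as did most of the 643. With so few regions of 5 or more clusters, their absence from the 10 deepest says little about cluster number.

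**Figure D1:**
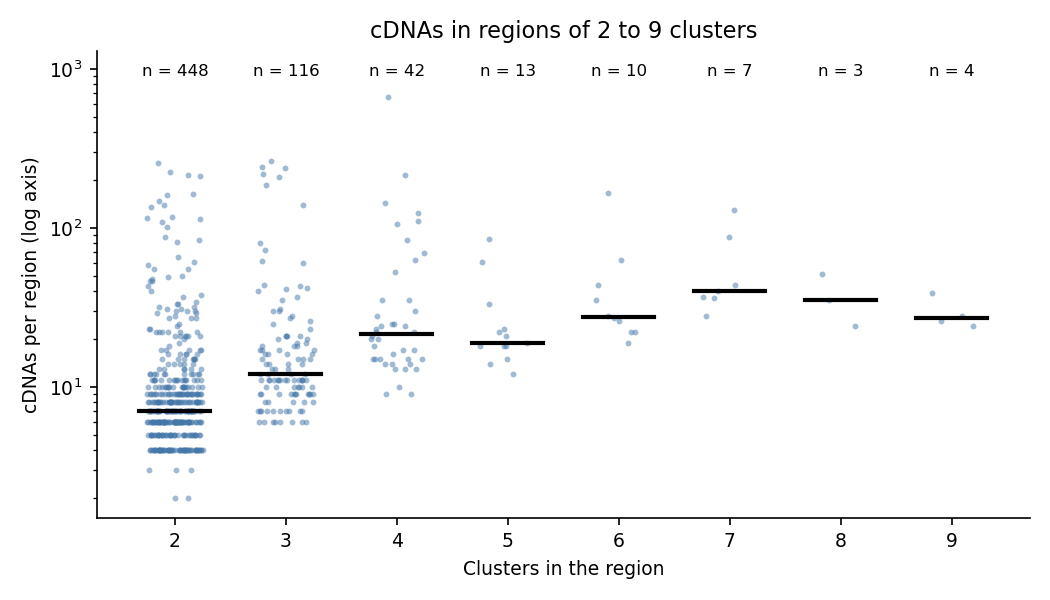
cDNAs per region (vertical, logarithmic axis) against the number of clusters in the region (horizontal); each point is 1 region, shifted sideways at random for legibility, black bars are medians and n is the number of regions. Medians rise from 7 at 2 clusters to 21.5 at 4, and are 19 at 5, 27.5 at 6, 40 at 7, 35 at 8 and 27 at 9. The points above 200 cDNAs all lie at 2 to 4 clusters, as do most regions.

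A small number of regions carried much of the depth. The 51 regions with 50 or more cDNAs (7.93%) held 6856 cDNAs, or 49.4% of those in the 643 regions, with 25.3% of the sites. The 342 regions with fewer than 10 cDNAs (53.2%) held 15.7% of the cDNAs. The 10 deepest held 2755 cDNAs (19.9%) and the deepest alone 4.79%. Without these 10, the mean fell from 1.94 (95% exact Poisson interval 1.91 to 1.98) to 1.63 cDNAs per site. Deep regions also leaned on 1 cluster: the leading cluster held a median of 57.1% of a region's cDNAs over all 643, and 90.1% over the 29 regions with 100 or more cDNAs. Of these 29, 15 had a leading share of 90% or more. The median was 59.7% at 20 to 50 cDNAs and 69.3% at 50 to 100. A region with fewer than 10 cDNAs cannot reach 90%, so part of the contrast is built in.

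The deepest region lay at chr5:115939464-115940353 (+), where 4 clusters with 82 sites carried 665 cDNAs. In the direction of transcription the clusters held 83, 258, 26 and 298 cDNAs. The narrow clusters of 83 and 26 cDNAs were 3 and 2 nt wide, and each had a tall site at its last nucleotide, 67 cDNAs at 115939466 and 23 cDNAs at 115940261. The broad clusters of 258 and 298 cDNAs were 39 and 42 nt wide, with no site above 20 cDNAs. Each narrow cluster was separated from the broad one after it by a gap of 51 nt, the smallest gap in any of the 643 regions, and a gap of 705 nt separated the pairs. The region thus shows a narrow and a broad cluster, and the same again further along the strand.

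The second deepest region was almost a single nucleotide. At chr18:10144552-10151141 (-), 263 cDNAs fell on 13 sites, of which the site at 10151140 held 217 (82.5%). Its 3 clusters held 237, 21 and 5 cDNAs in the direction of transcription. A like concentration was found at chr13:20748835-20752453 (-). There 216 cDNAs fell on 7 sites, on average 30.9 at each, and 98 of them lay at 20752452. In both regions the deep cluster was the first in the direction of transcription and no more than 6 nt wide. The clusters after it held 21 and 5 cDNAs on chromosome 18, with a site of 13 in the former, and 2 cDNAs on chromosome 13.

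In 6 more of the 10 deepest regions 1 cluster carried over 90% of the cDNAs. At chr2:5300224-5300407 (-), 2 clusters held 252 and 4 cDNAs. At chr6:128788467-128793971 (+), 3 clusters held 13, 228 and 2. At chr15:82980071-82980202 (+), 2 clusters held 8 and 218. These 3 regions show a deep cluster at the first, middle and last place in turn. At chr1:124253742-124253896 (-), clusters of 5 and 3 cDNAs lay on either side of one with 211. At chr9:70402458-70421884 (+), the first of 4 clusters held 203 of 216 cDNAs and the next lay 17433 nt away. At chr8:15519772-15519931 (+), 2 clusters held 4 and 208. Leading shares in these 6 regions were 93.8% to 98.4%.

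The remaining region of the 10 divided its depth differently. At chr9:65044401-65049652 (-), a lone site of 11 cDNAs was followed after 77 nt by a cluster of 76 cDNAs and, after 5134 nt, by a cluster of 152 cDNAs. The clusters of 76 and 152 cDNAs were 19 and 23 nt wide. Among all 643 regions, 84 had at least 1 cluster of 20 or more cDNAs and only 16 had 2 or more such clusters.

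The tallest single sites outside the 10 deepest regions sat in the same kind of setting. They were 53 cDNAs at chr13:9833593-9833771 (-, 160 cDNAs in the region), 52 at chr1:172958093-172975171 (+, 139 cDNAs in the region) and 46 at chr13:54285420-54285560 (-, 164 cDNAs in the region). They were followed by 43 at chr6:53383963-53384040 (+, 139 cDNAs in the region) and 36 at chr1:173032928-173041632 (+, 114 cDNAs in the region). A site of 36 cDNAs at chr18:54858593-54859000 (-, 101 cDNAs in the region, leading share 97.0%) ties with the last of these and was named after its value was seen. The leading cluster held 95.6% to 97.1% of the cDNAs in 5 of these 6. The exception was the region from 172958093 on chromosome 1, whose clusters held 102, 9 and 28 cDNAs, or 73.4%, 6.47% and 20.1%.

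Outside the 10 deepest regions, those with the most sites spread their depth over several clusters, with or without a tall site. The deepest region, with 82 sites, a mean of 8.11 cDNAs per site and a site of 67, ranked second by sites. The most sites, 83, lay at chr2:113874043-113877966 (-), where 7 clusters carried 129 cDNAs. They held 36, 2, 12, 10, 46, 12 and 11 cDNAs in the direction of transcription, and no site exceeded 5. At chr19:36186234-36194334 (-), 7 clusters with 60 sites carried 88 cDNAs and no site exceeded 4. At chr5:125866504-125886452 (-), 67 sites in 6 clusters carried 166 cDNAs, 96 of them in 1 cluster, and the tallest site had 20. At chr11:106644062-106649505 (-), 59 sites in 4 clusters carried 124 cDNAs, as 7, 41, 22 and 54, with a tallest site of 16. At chr1:72272899-72301646 (+), 70 sites in 3 clusters carried 208 cDNAs, as 63, 23 and 122 over 28748 nt. Its tallest site had 22. These 5 regions shared their depth among several clusters, with leading shares of 33.0% to 58.7%, although 4 of them are among the 29 regions with 100 or more cDNAs, whose median is 90.1%.

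The 4 regions with 9 clusters had no tall site. The one with the most cDNAs lay at chr6:118570147-118590156 (-), with 39 cDNAs on 35 sites and none above 2. Its clusters held 2, 4, 7, 3, 10, 6, 1, 5 and 1 cDNAs in the direction of transcription. The other 3 were at chr1:73988697-74000300 (-, 28 cDNAs in the region), chr14:102313586-102319370 (+, 26 cDNAs) and chr15:12495579-12515701 (-, 24 cDNAs). No site in these 4 regions exceeded 3 cDNAs. The largest gap between neighbouring clusters was 12375 nt in the chromosome 6 region and 2021 nt in the chromosome 14 region.

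**Figure D2:**
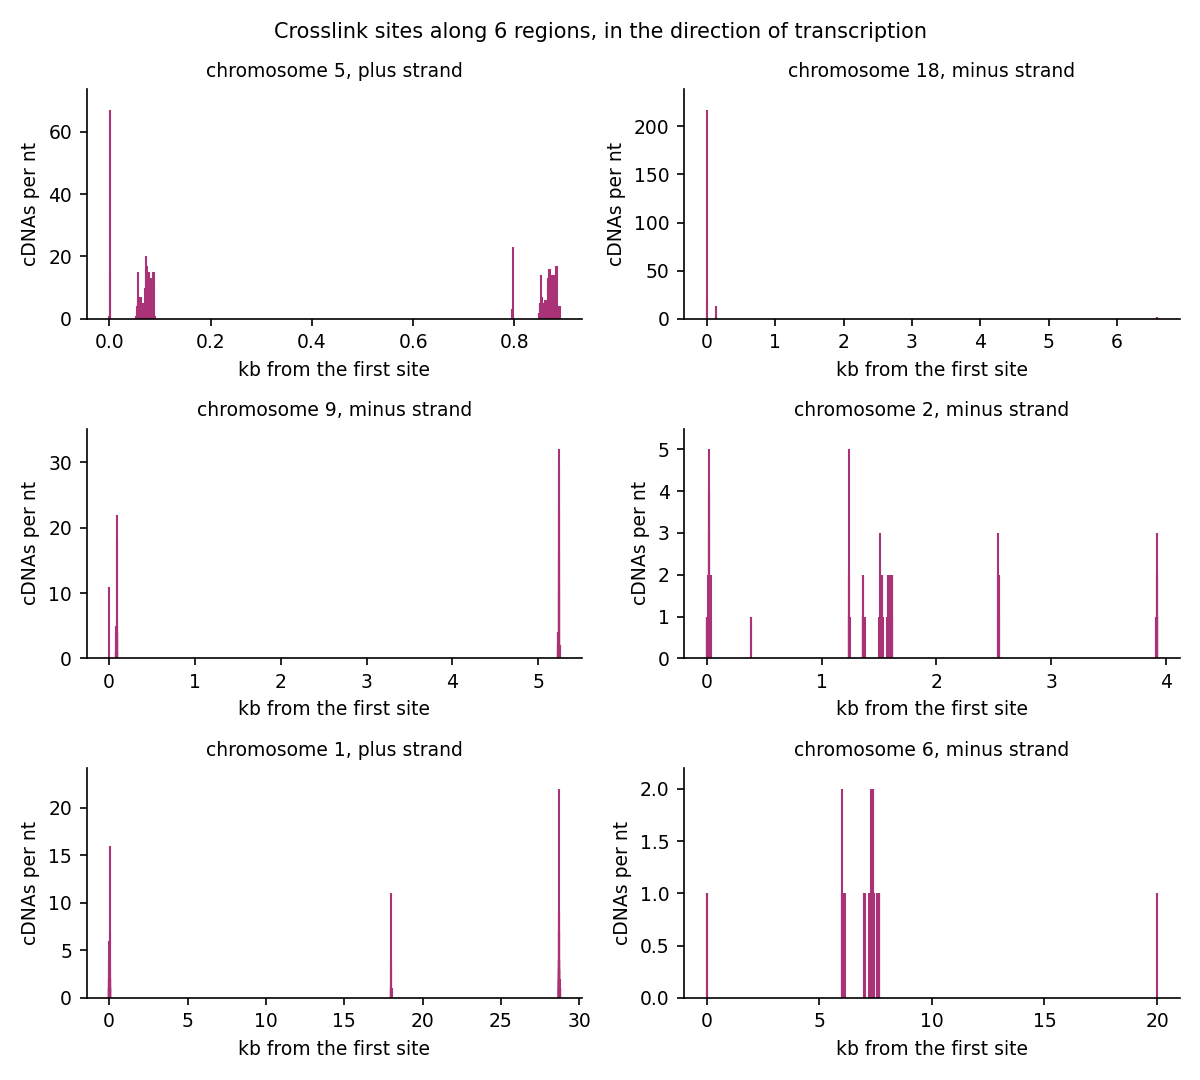
Pooled cDNAs per nucleotide (vertical, linear, a different scale in each panel) against the distance in kb from the first site in the direction of transcription (horizontal) in 6 regions; each line is 1 site. The first 3 panels are regions of 665, 263 and 239 cDNAs, with tall narrow clusters, the next panels the regions of 83 and 70 sites, and the last a region of 9 clusters in which no site exceeds 2 cDNAs.

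The shortest regions had the highest mean per site when sites were pooled. The 49 regions under 200 nt had a mean of 4.004 cDNAs per site (95% exact Poisson interval 3.83 to 4.18), against 2.25 in the 92 regions of 200 to 1000 nt. The mean was 1.53 in the 155 regions of 1000 to 5000 nt, 1.75 in the 306 regions of 5000 to 20000 nt and 1.69 in the 41 longer ones. Of the 49 shortest, 4 were among the 10 deepest regions, and without those 10 the means in the same order were 2.82, 1.82, 1.39, 1.504 and 1.69. The medians of the regions' own means differed less, at 1.40, 1.29, 1.21, 1.17 and 1.18. The median numbers of cDNAs per region were 11, 12, 8, 8 and 22. At least 50 cDNAs were found in 9 of the 49 shortest (18.4%, exact interval 8.76% to 32.02%), 12 of 92 (13.04%), 6 of 155 (3.87%), 19 of 306 (6.21%) and 5 of 41 (12.2%). The 3 longest regions all lay on chromosome 13 and had more cDNAs than the upper quartile of 18, but no site above 5. They were chr13:11773541-11819546 (-, 46006 nt, 6 clusters, 28 cDNAs), chr13:21991892-22032267 (-, 40376 nt, 4 clusters, 53 cDNAs) and chr13:21332804-21371622 (+, 38819 nt, 7 clusters, 37 cDNAs). The 3 shortest were chr13:23545315-23545388 (-, 74 nt, 7 cDNAs), chr13:99691740-99691816 (-, 77 nt, 5 cDNAs) and chr6:53383963-53384040 (+, 78 nt, 139 cDNAs). The shortest regions were thus both deep and shallow.

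The 1003 gaps between neighbouring clusters spread over the whole allowed range. The median gap was 2499 nt (95% order-statistic interval 2170 to 3116), the quartiles were 418 and 8835 nt, and the range was 51 to 19982 nt. Gaps under 200 nt numbered 160 (16.0%), gaps under 1000 nt 363 (36.2%) and gaps under 10000 nt 786 (78.4%). The limit of 20000 nt did not fall at a natural break: 102 gaps of 15000 to 20000 nt lay inside these regions, and 95 gaps that ended nuclear regions exceeded it by less than 5000 nt. Gaps tended to be shorter in regions with more clusters, though not evenly. The medians were 4820.5, 2206 and 1505 nt at 2, 3 and 4 clusters. They were 552.5 nt at 5 clusters, 1550.5 at 6, 955 at 7, 861 at 8 and 325 at 9. The limit on gaps may build in part of this relation, which was not tested.

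**Figure D3:**
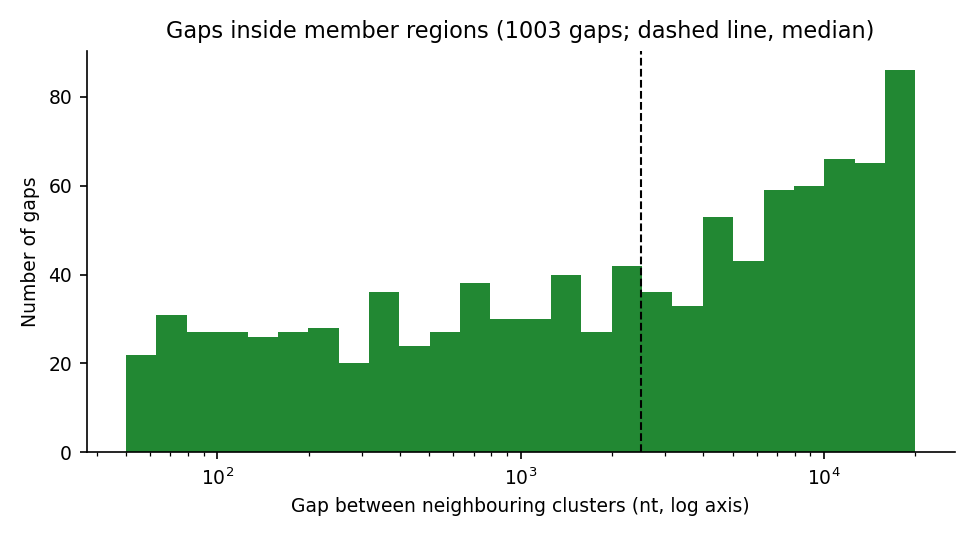
Number of gaps (vertical) by gap length in nt between neighbouring clusters of a region (horizontal, logarithmic axis, bins of equal width on that axis) for the 1003 gaps. Gaps fill the range from 51 to 19982 nt without a break, and the dashed line marks the median of 2499 nt.

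The 448 regions of 2 clusters show how the depths of neighbouring clusters compare. In 309 of them (69.0%, exact interval 64.5% to 73.2%) the clusters were within 2-fold of each other, and in 121 they were equal. Most of these clusters were shallow, with a median of 3 cDNAs in the smaller cluster at every gap length, so close values are common among them. Near pairs were the more unequal. Within 2-fold were 47.4% (34.0% to 61.0%) of the 57 pairs with gaps under 200 nt, 59.6% of the 57 pairs with gaps of 200 to 1000 nt and 69.3% of the 114 with gaps of 1000 to 5000 nt. The share was 77.0% of the 87 pairs at 5000 to 10000 nt and 76.7% (68.6% to 83.6%) of the 133 pairs at 10000 to 20000 nt. The larger cluster had a median of 8 cDNAs in pairs closer than 200 nt, 5 at 200 to 1000 nt and 4 at each greater distance. A difference of more than 10-fold was seen in 20 pairs, 8 of them with gaps under 200 nt. Across all 448 pairs Spearman's rho between the depths of the clusters was 0.26, a description over pairs from the same pooled libraries.

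The leading cluster was first about as often as last. It was unique in 486 regions and tied in 157. Of the 486, 44.2% (exact interval 39.8% to 48.8%) had it first in the direction of transcription and 40.9% (36.5% to 45.5%) last, the rest having it between. In regions of 2 clusters the first led in 170 and the last in 157. In regions of 3 the first, middle and last clusters led in 28, 35 and 32, and in regions of 4 the first led in 11, the last in 6 and one of the inner clusters in 17. Within clusters the tallest site lay about as often on either side. Of 214 clusters with 10 or more cDNAs and at least 3 sites, 81 had it in the upstream part, 79 in the downstream part, 3 at the middle and 51 had tied tallest sites.

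Against nuclear clusters that stood alone, clusters of these regions had more cDNAs and sites at the median, while the order of the means per site depended on the limit on runs. The 4761 lone clusters had a median of 3 cDNAs, 2 sites and a width of 3 nt, against 4 cDNAs, 3 sites and 7 nt in the 1646 clusters here. Clusters of 20 or more cDNAs made up 3.59% of lone clusters and 105 of 1646 here (6.38%, exact interval 5.25% to 7.67%). The mean was nevertheless 2.15 cDNAs per site for lone clusters (95% exact Poisson interval 2.13 to 2.17) and 1.94 here, whereas the median of each region's own mean was 1.00 and 1.20. The limit on runs was applied here and not to lone clusters. With no run limit the mean here was 2.30 (2.27 to 2.34), above that of lone clusters, and with the limit applied to both, which removes 5 lone clusters, the means were 1.94 here and 1.96 for lone clusters. The deepest lone cluster had 1559 cDNAs, against 298 for the deepest cluster here. Sites of a single cDNA made up 72.7% here (exact interval 71.7% to 73.7%) and 71.8% in lone clusters.

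Clusters in the 30 nuclear regions of 10 or more clusters were deeper again when pooled over the regions. They had a median of 5 cDNAs and a width of 15 nt, and 14.5% of them held 20 or more cDNAs. Their mean was 2.65 cDNAs per site (2.61 to 2.69), and 58.1% of their sites had a single cDNA. However, 1 of the 30 regions held 11994 of their 20679 cDNAs. The median of the regions' own means was 1.22, against 1.20 here, so the typical region hardly differed per site. A further 14 nuclear regions of 2 to 9 clusters were not kept, 12 for a run of 50 or more sites and 2 by position, and had a mean of 8.15 cDNAs per site. That mean and the lower values here are partly set by the limit on runs, which removes dense stretches.

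**Figure D4:**
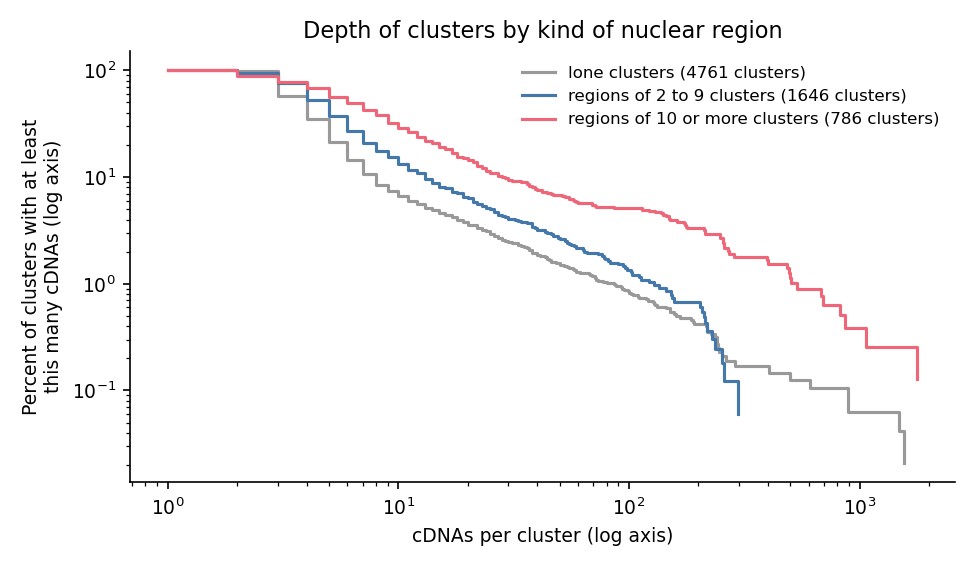
Percent of clusters (vertical, logarithmic axis) with at least the number of cDNAs on the horizontal, logarithmic axis, for lone nuclear clusters, clusters of the regions described here and clusters of regions with 10 or more clusters. The curve of the 1646 clusters lies between the other two from 3 to about 200 cDNAs and ends at 298, while lone clusters reach 1559.

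Some deep clusters had a like site layout, a pattern found after the values were seen. In the deepest region, on chromosome 5, the second pair of clusters repeated the first at a shift of 795 nt. Of the 39 sites of the first pair (341 cDNAs) and the 43 of the second (324 cDNAs), 38 matched, or 97.4% and 88.4%. For the broad clusters of 258 and 298 cDNAs, 36 sites matched, all of the 36 in the first and 87.8% of the 41 in the second. The cosine of their cDNA profiles, which is 1 for profiles in the same proportions, was 0.945. For the whole first pair against the whole second pair the cosine was lower, 0.839. The main difference was in the narrow clusters, with 67 cDNAs at the tall site of the first and 23 at that of the second.

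A like layout linked regions on different chromosomes. Among the 50 clusters with 40 or more cDNAs and 8 or more sites, all 1225 pairs were aligned at the shift of highest cosine, which favours high values. The median cosine was 0.65 and the 95th percentile 0.87, and 30 pairs had a cosine of 0.9 or more. Of the 30, 10 shared at least 12 sites, a limit set after the values were seen, and the other 20 are not described. The limit on sites alone is weak, since 333 of the 1225 pairs met it, with a median cosine of 0.63. Of the 10 pairs that met both limits, 6 joined 5 clusters in 3 regions. On the plus strand they were chr10:30530940-30531003 with 145 cDNAs, chr4:116862618-116862639 with 90 and chr4:116883473-116883494 with 78. On the minus strand they were chr9:65044401-65044423 with 152 and chr9:65049557-65049575 with 76. Each had most of its cDNAs in the same 7 adjacent nucleotides of the alignment, between 73.1% and 81.6%. The tallest site was at the same aligned nucleotide in 4 of them and 1 nt later in the chromosome 10 cluster. The 7 nucleotides were picked from this alignment, and aligning at the highest cosine tends to lay tall sites over each other. Neither feature is therefore separate support for a like layout. Not every pair among the 5 clusters met both limits, and those on chromosome 4 had a cosine of 0.86 with each other. The 5 clusters together held 541 cDNAs, 3.90% of those in the 643 regions.

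The remaining like pairs were fewer. A cluster of 157 cDNAs at chr13:54285539-54285560 (-) and one of 73 cDNAs at chr14:20110663-20110698 (+) each paired with one of 55 cDNAs at chr16:43168320-43168345 (+). At chr11:106644062-106644098 (-) a cluster of 54 cDNAs paired with one of 79 cDNAs at chr2:117074065-117074086 (+). No source used here says how reads that map to several places were handled. Whether such reads are counted in more than 1 of these clusters was not tested, since that needs the reads and an mm9 genome.

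**Figure D5:**
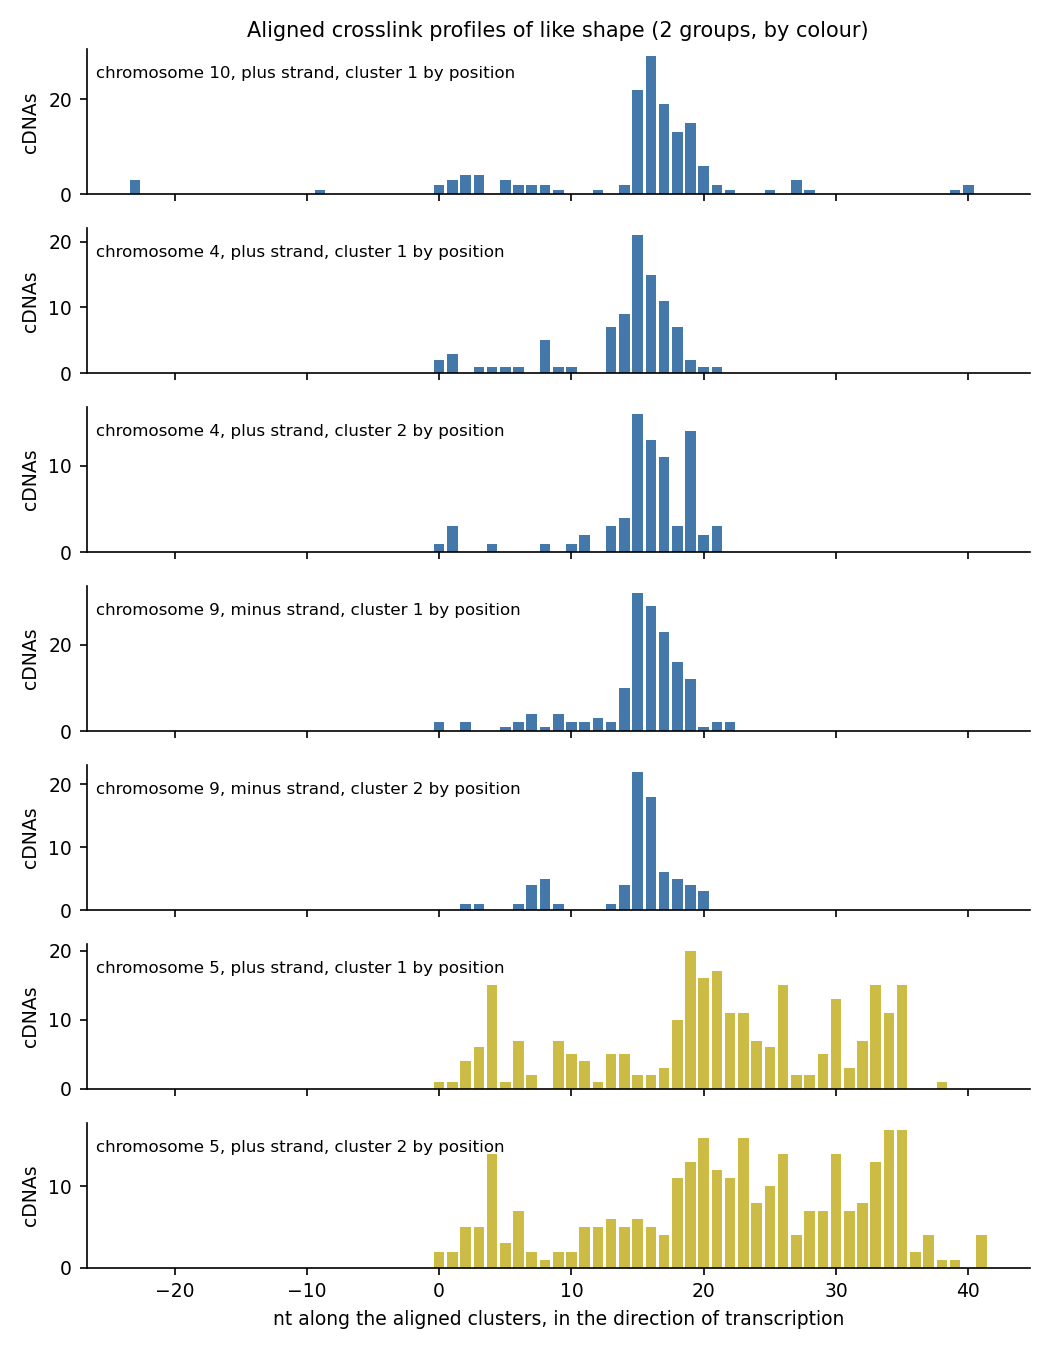
cDNAs per nucleotide (vertical, linear, a different scale in each panel) along aligned clusters in the direction of transcription (horizontal, nt); each bar is 1 nt, clusters are numbered by mm9 position, and colour marks the group. The 5 blue clusters, on chromosomes 10, 4 and 9, peak at offsets 15 and 16, and both yellow clusters, the broad ones of the chromosome 5 region, show the same succession of sites.

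Strands were used about evenly. Of the 643 regions, 304 (47.3%, exact interval 43.4% to 51.2%) were on the plus strand, against 50.1% of lone clusters. Chromosome 9 had the most regions, 49 of its 283 nuclear regions (17.3%), and 14 of the 49 were on the plus strand (28.6%, 16.6% to 43.3%). Chromosome 17 had the highest share, 40 of 214 (18.7%), followed by chromosome 13 with 43 of 247 (17.4%), and chromosome 16 had 14 of 201 (6.97%). The 4 nuclear regions of the Y chromosome included none. These shares were compared without a test.

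Other contacts lay near a minority of these regions. Another nuclear region of any kind lay within 40000 nt on the same strand of 119 regions (18.5%, exact interval 15.6% to 21.7%), against 9.83% of lone clusters. Within 100000 nt the shares were 42.3% and 27.03%. For the 30 nuclear regions of 10 or more clusters they were 40% within 40000 nt and 63.3% within 100000 nt. The median distance to the nearest was 130252 nt here and 237629 nt for lone clusters. The rule itself used spacing on the same strand, so these comparisons partly describe the choice and support nothing. Neighbours that both had 2 to 9 clusters were less than 40000 nt apart in 16 cases, and 3 of these pairs would reach 10 or more clusters if joined. The region of 9 clusters at chr1:73988697-74000300 (-) and one of 8 clusters at chr1:74027596-74048542 (-, 35 cDNAs) were 27296 nt apart.

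Contacts on the opposite strand were rare within the bounds. At least 1 opposite-strand site was found inside 15 regions (2.33%, exact interval 1.31% to 3.82%), and in 9 of the 15 it belonged to another region of 2 to 9 clusters. Clusters of both strands overlapped in 1 region only, at chr2:30305884-30306220 (+). Lone clusters span few nucleotides, and 1 of 4761 had an opposite-strand site inside it. The 15 regions had a median length of 15142 nt, against 5812 nt over all 643.

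The limits of the rule cut through a continuum. Just outside the limit on clusters, 4 regions had 10 clusters and 44, 44, 44 and 70 cDNAs, near the 24 to 39 cDNAs of the 4 regions with 9. Just inside the limit on runs, 2 regions had a run of 48 sites: the one from 113874043 on chromosome 2 (129 cDNAs) and one at chr2:22599963-22600641 (-, 143 cDNAs in the region). Just outside, runs of 51 sites were found at chr6:47689896-47707760 (-, 646 cDNAs in the region) and at chr7:51731850-51740750 (+, 77 cDNAs in the region).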

How the data were processed

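iCLIP of SRSF4-GFP in neonatal mouse cardiomyocytes was analysed from 1 deposited list of crosslink sites on mm9. Its value is a score that the authors deposited, a whole number of cDNAs summed over 5 data sets with the sign giving the strand, per the file header. Per the file header, the authors used 100 permutations and a 15 nt neighbourhood, kept sites with FDR below 0.05, treated regions separately and named Ensembl release 59. The submitters' processing notes name Bowtie 0.10.1. No source used here gives library depths or the handling of duplicate or multiply mapping reads. The label text on extraction describes frozen hearts as well as crosslinked cells.

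Clusters, regions and runs were built with Python 3.11.15, numpy 2.4.6 and pandas 2.3.3, and intervals with scipy 1.17.1 (95% exact binomial and Poisson, order statistics for medians). On simulated data 800 of 800 planted regions were recovered. That result checks the code under the simulated settings only, and does not show that the limits of the rule suit these data. The regions and the descriptions were chosen with earlier results of these data known. Named regions are the 10 with most cDNAs, the next 5 by tallest site, the next 5 by sites, those of 9 clusters, the 3 longest and 3 shortest, and those at the limits. Clusters of like layout were chosen after their values were seen. With 1 pooled list there was no test, and cell type marker lists were not used because genes could not be named on mm9. Alternatives changed the joining distances, the run limit, the site minimum and the chromosomes, and one added after seeing the data left out the 10 deepest regions.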

Additional observations from a re-analysis of the deposited data

How the results depend on the processing

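Over 9 alternatives and 10 results, 66 of 90 values moved by less than their counting interval or, for the number of regions, by less than 1.5 times, and 24 moved more; none has a test. The number of regions, 643, was 244 with sites of 2 or more cDNAs only, and it ranged up to 792 over the others. That setting also gave a median of 11 cDNAs per region, 4.997 cDNAs per site, a median gap of 944.5 nt and 14.9% of nuclear cDNAs. Joining sites at most 25 nt apart gave 17.3% of nuclear cDNAs, 2.04 cDNAs per site and a gap of 2135 nt, and at most 100 nt apart 14.4% and 1.80. Ending regions at gaps of 10000 nt gave 13.5%, 1.98 and a gap of 1157 nt. At 40000 nt the values were 18.2%, 1.89 and 6034 nt, with 4.04% of regions holding an opposite-strand site. A run limit of 30 sites gave 12.5% and 1.76, and no run limit 21.3% and 2.30. Without chromosome 9 the share was 15.4%. Without the 10 deepest regions, an alternative chosen after seeing the data, it was 13.01% with 1.63 cDNAs per site. The shares with the leading cluster first (41.9% to 45.1%) or last (40.3% to 43.1%), the plus-strand share (46.4% to 50.8%) and the median leading share (57.1% to 57.5%) stayed within their intervals under all 9. No alternative that leaves out a library could be run, because the list is pooled. No paired analysis was possible because the 4 libraries form 1 group and the list carries no replicate values. Clusters of 1 to 3 cDNAs rest on very few molecules, and contacts below the authors' threshold are not in the list.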

Other observations

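These regions were unevenly spread along chromosome 13, a stretch singled out after its values were seen. Of 486 windows of 1000000 nt that contained at least 1 such region, 369 contained 1 and 7 contained 4 or more. The most, 6, lay between 21 and 22 Mb of chromosome 13. Between 21 and 24 Mb there were 12 regions, 6 on each strand, which is 27.9% of the 43 on that chromosome. They were 12 of the 30 nuclear regions of that stretch (40%), against 31 of 217 (14.3%) on the rest of the chromosome, and the stretch held 12.1% of the chromosome's nuclear regions. They carried 220 sites and 434 cDNAs, with 6 to 110 cDNAs per region and a median of 20, against 9 over all 643. Their median length was 12149.5 nt.

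In the 16 regions with at least 2 clusters of 20 or more cDNAs, 27 pairs were aligned at the shift of highest cosine. Their median cosine was 0.65 (0.34 to 1.00). The 1225 pairs of the 50 deep clusters had the same median, but those clusters had 40 or more cDNAs and 8 or more sites. The 27 pairs had no minimum number of sites, so the medians are not directly comparable. The pair at 1.00 was the narrow clusters of the chromosome 5 region, which have 3 and 2 sites, so a high value is easily reached there.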
